A study of Heliothis virescens with 2 samples.

Results

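The transcripts described here are 47 gut tags of *Heliothis virescens*, the tobacco budworm, whose named proteins move ions, nutrients and lipids across membranes, carry vesicles and proteins between compartments, handle iron, or build the cytoskeleton. They were chosen from the study's own annotated lists of tags that differed between the strains Vip–Sel and Vip–Unsel, as the entries read in the functional classes transport and trafficking (27 tags), cytoskeleton (18 tags) and iron homeostasis (2 tags). The classes held 52 entries, of which 5 were left out by name as subunits of the V-type proton pump or an ATP synthase factor, and the 47 others are a small part of the 35963 different tags of both libraries. The lists were read from page images with errors, so an entry of these classes may be missing. All 47 could be joined to a deposited tag. Because the lists hold only tags past a threshold, the difference between strains chose the members, and their counts are a description with no test.

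Vip–Sel was selected with the Vip3Aa protoxin of *Bacillus thuringiensis* from a field-derived population and is resistant to it, and Vip–Unsel is the susceptible subpopulation left without selection. Each strain is represented by 1 HT-SuperSAGE library, made from the guts (labelled midgut tissue) of 25 larvae of instar 3, with 5 RNA preparations of 5 guts each pooled into 1 sample. No larva of either library had fed on Vip3Aa, and the Vip–Sel insects had been reared without selection for several generations before dissection. There is no replicate, so no value below shows how far samples of the same strain differ.

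In a lepidopteran larva the gut wall is a single layer of epithelial cells with a brush border of microvilli, wrapped in visceral muscle. Solute carriers and channels in these membranes take up nutrients and set the ion balance, coat proteins and tethers route vesicles, and microfilaments and microtubules with their motors hold the cell's shape and move its cargo. Ferritin stores iron, and the iron-sulfur assembly factors build the clusters that many enzymes need.

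In HT-SuperSAGE each transcript is represented by a tag of 26 bases that starts at the NlaIII site CATG, and the count of a tag is the number of reads with that sequence. The Vip–Sel library held 1056080 counts of 27986 different tags, and the Vip–Unsel library held 268172 counts of 13214 tags. Levels are given in cpm, the number of counts in every 1000000 counts of the library, and the fold change (FC) is the Vip–Sel level over the Vip–Unsel level. Intervals beside an FC are exact 95% binomial intervals, which cover counting error only, since PCR copies are not independent molecules. Overexpressed (OE) tags are those whose FC reached 2.5, and underexpressed (UE) tags those whose FC was 0.4 or lower, in each case with a one-sided Audic–Claverie P under 0.05 that was not adjusted. A count of 3 corresponds to 2.84 cpm in Vip–Sel and to 11.2 cpm in Vip–Unsel. In bulk gut RNA, fewer cells of a type and less RNA per cell cannot be told apart. Digestive enzymes and HMG176, which mark the gut epithelium, were abundant in both libraries. The study's lists, which hold only OE and UE tags, name 28 tags for them (18 OE, 10 UE). Of all OE and UE tags counted in both libraries, 78.9% were UE. The 28 tags took 22.7% of the whole Vip–Sel library against 4.88% of the Vip–Unsel library, and a single HMG176 tag gave a large part of the Vip–Sel sum. The part of this difference in the members' values was not tested. The 6 tags named for cuticle or chitin proteins, of epidermis and trachea, took 0.180% of Vip–Sel and 0.278% of Vip–Unsel. No tag of the lists was named for fat body or haemocyte proteins.

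Of the 47 tags, 8 were OE and 39 were UE. Over all 15467 tags with at least 2 counts, 6.70% were OE and 27.0% were UE. Among the 5237 tags counted in both libraries, from which every member comes, 8.02% were OE and 30.0% were UE, and the median FC was 0.472. Of the 1990 tags called there, 78.9% were UE, against 83.0% of the members. Together the members held 5634 counts in Vip–Sel (0.533% of the library) against 6610 in Vip–Unsel (2.46%). Most of these counts belonged to 5 tags, those of Eps8-like, nesprin-1, tubulin alpha chain-like, the channel HCN2 and non-muscle myosin heavy chain, which made up 88.5% of the members' Vip–Sel counts against 92.3% for Vip–Unsel. The other 42 members were thinly counted. In Vip–Sel 23 members had 5 or fewer counts and 8 had a single count, and in Vip–Unsel 20 members had 5 or fewer. The interval of the FC lay wholly past the threshold for 4 OE and 17 UE members, and it held 1 for 2 OE and 6 UE members. The FC nearest to the thresholds was 2.66 for an OE member (non-muscle myosin heavy chain) and 0.317 for a UE member (lissencephaly-1 homolog). Just outside the thresholds, the nearest tags of the libraries that met the P limit had an FC of 2.48 and of 0.4004.

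**Figure D1:**
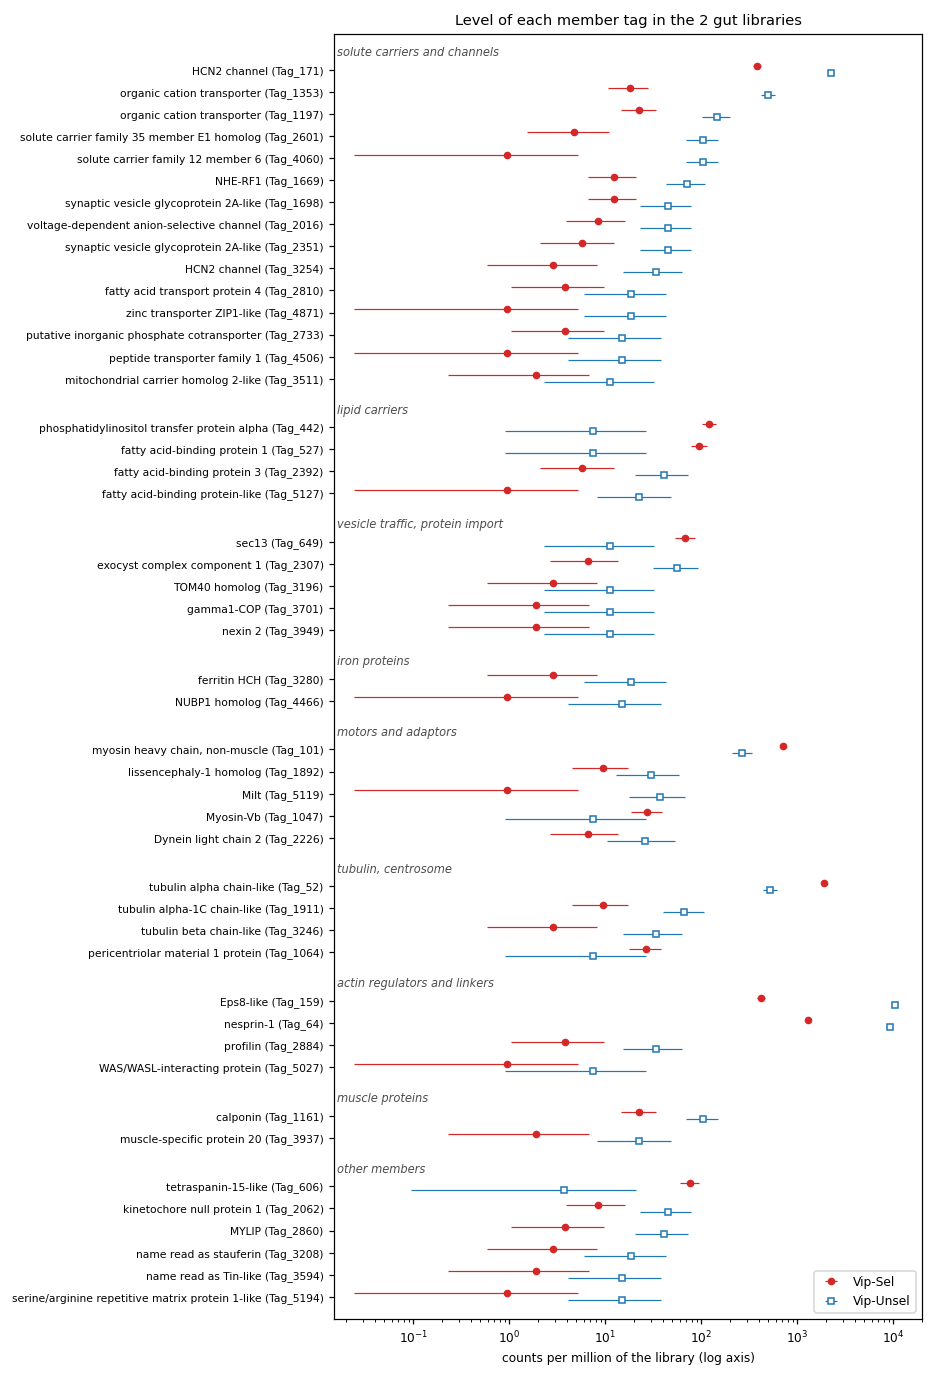
Level of each of the 47 member tags in Vip–Sel (filled circles) and Vip–Unsel (open squares) in cpm on a log axis, with exact 95% Poisson intervals as bars, by functional group. The Eps8-like and nesprin-1 tags stand at 10445 and 9252 cpm in Vip–Unsel, far above the other members, and the 8 OE members are those whose Vip–Sel level lies to the right.

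The tags that carry the largest values are shown first, each as deposited, 5′ to 3′, with the NlaIII site in capitals. Most are among the most abundant or most changed members of their groups, while Tag_1911 and Tag_1197 were added, after their values were seen, for comparison with another tag of the same or a like name. Tags that share a contig follow further down.

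Eps8-like (Tag_159): CATGcccggccaccagctgttcgcgc
nesprin-1 (Tag_64): CATGctgcccccgactgccgcgcgcg
tubulin alpha chain-like (Tag_52): CATGgactccgccgagggcgagggtg
tubulin alpha-1C chain-like (Tag_1911): CATGaaataaaacaaaacaattatgt
non-muscle myosin heavy chain (Tag_101): CATGcgcagtgcccgcgtcgcgtgcg
solute carrier family 12 member 6 (Tag_4060): CATGctgatgctgctgccgttcctgc
organic cation transporter (Tag_1353): CATGgtgggccgcatcggctccatca
organic cation transporter (Tag_1197): CATGttcgcggtgctggcgttcacgt
phosphatidylinositol transfer protein alpha (Tag_442): CATGtatcgtgtggcagtcggccgca
fatty acid-binding protein 1 (Tag_527): CATGaaacttgaaggttgggatggcg
sec13 (Tag_649): CATGggctccgtctctagggctgcag
tetraspanin-15-like (Tag_606): CATGgaacgcgaggctgaggacgcgt
calponin (Tag_1161): CATGggcgactatcgtgcgggcaagg

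Of the 22 bases after CATG, tubulin alpha-1C chain-like has 3 G or C and tubulin alpha chain-like has 17, although both are named as alpha tubulins. Over the members this GC number ran between 3 and 21, with a median of 14.5 in the OE and 14 in the UE members. Tags counted in both libraries had medians of 16 (420 OE tags), 14 (1570 UE tags) and 15 (3247 tags past neither threshold).

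Solute carriers and channels formed the largest group, with 15 tags. All 15 were UE, as were 78.9% of all called tags counted in both libraries. Under TMM scaling, where library sizes are set without the tags of extreme ratio or level, 10 of the 15 stayed UE. Their counts summed to 510 in Vip–Sel (0.0483% of the library) against 921 in Vip–Unsel (0.343%), an FC of 0.141 (0.126 to 0.157). The median FC of the 15 tags was 0.156, against 0.127 over all UE tags counted in both libraries, and single tags ran between 0.00907 and 0.275. HCN2, which in mammals is a cation channel opened by hyperpolarization, gave the most abundant tag of the group. This tag (Tag_171) had 405 counts in Vip–Sel (383.5 cpm) against 606 in Vip–Unsel (2259.7 cpm), an FC of 0.170 (0.149 to 0.193). It ranked 175th in the Vip–Sel library and 56th in the Vip–Unsel library. Without it the other 14 tags summed to 105 and 315 counts in Vip–Sel and Vip–Unsel, an FC of 0.0846 (0.0672 to 0.106).

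The lowest FC of all 47 members belonged to solute carrier family 12 member 6, in humans a potassium-chloride cotransporter. Tag_4060 had 1 count in Vip–Sel (0.947 cpm) against 28 in Vip–Unsel (104 cpm), an FC of 0.00907 whose interval, 0.000222 to 0.0549, rests on that single count. Both tags named organic cation transporter, a family that carries charged organic molecules, were UE, with different values. Tag_1353 had 19 counts in Vip–Sel (18.0 cpm) against 135 in Vip–Unsel (503 cpm), an FC of 0.0357 (0.0209 to 0.0580). Tag_1197 had 24 counts in Vip–Sel (22.7 cpm) against 39 in Vip–Unsel (145 cpm), an FC of 0.156 (0.0899 to 0.266). The intervals of these tags did not overlap, and they matched different contigs.

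Among the carriers of single nutrients, the homolog of solute carrier family 35 member E1, a relative of the nucleotide sugar transporters, had 5 counts in Vip–Sel compared with 28 in Vip–Unsel (FC 0.0453, 0.0137 to 0.119). The zinc importer ZIP1-like had 1 Vip–Sel count against 5 for Vip–Unsel (FC 0.0508, 0.00107 to 0.454). Peptide transporter family 1, of the kind that takes up small peptides, had 1 and 4 counts in Vip–Sel and Vip–Unsel (FC 0.0635, 0.00129 to 0.642). At these counts the order of the carriers cannot be read. Fatty acid transport protein 4, which brings long-chain fatty acids into cells, had 4 counts in Vip–Sel compared with 5 in Vip–Unsel (FC 0.203, 0.0403 to 0.944). The putative inorganic phosphate cotransporter had 4 counts in each library, an FC of 0.254 (0.0473 to 1.36) once the depth is taken into account. Its interval held 1, and so did that of the mitochondrial carrier homolog 2-like tag, a protein of the outer mitochondrial membrane, with 2 Vip–Sel counts against 3 for Vip–Unsel (FC 0.169, 0.0141 to 1.48).

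The voltage-dependent anion-selective channel, the main pore of the outer mitochondrial membrane, had 9 counts in Vip–Sel compared with 12 in Vip–Unsel (FC 0.190, 0.0709 to 0.492). NHE-RF1, in mammals a scaffold that ties a sodium-hydrogen exchanger and other membrane proteins to the cortical actin, had 13 Vip–Sel counts against 19 for Vip–Unsel (FC 0.174, 0.0789 to 0.371). Synaptic vesicle glycoprotein 2A-like (SV2A-like), named after a vesicle membrane protein that resembles sugar transporters, had a pair of tags. A pair of tags listed for another protein comes close to them, as given with the forms below. Tag_1698 had 13 counts in Vip–Sel compared with 12 in Vip–Unsel (FC 0.275, 0.116 to 0.660), and Tag_2351 had 6 in Vip–Sel against 12 in Vip–Unsel (FC 0.127, 0.0391 to 0.366). The intervals of all 4 of these tags lay below 1.

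**Figure D2:**
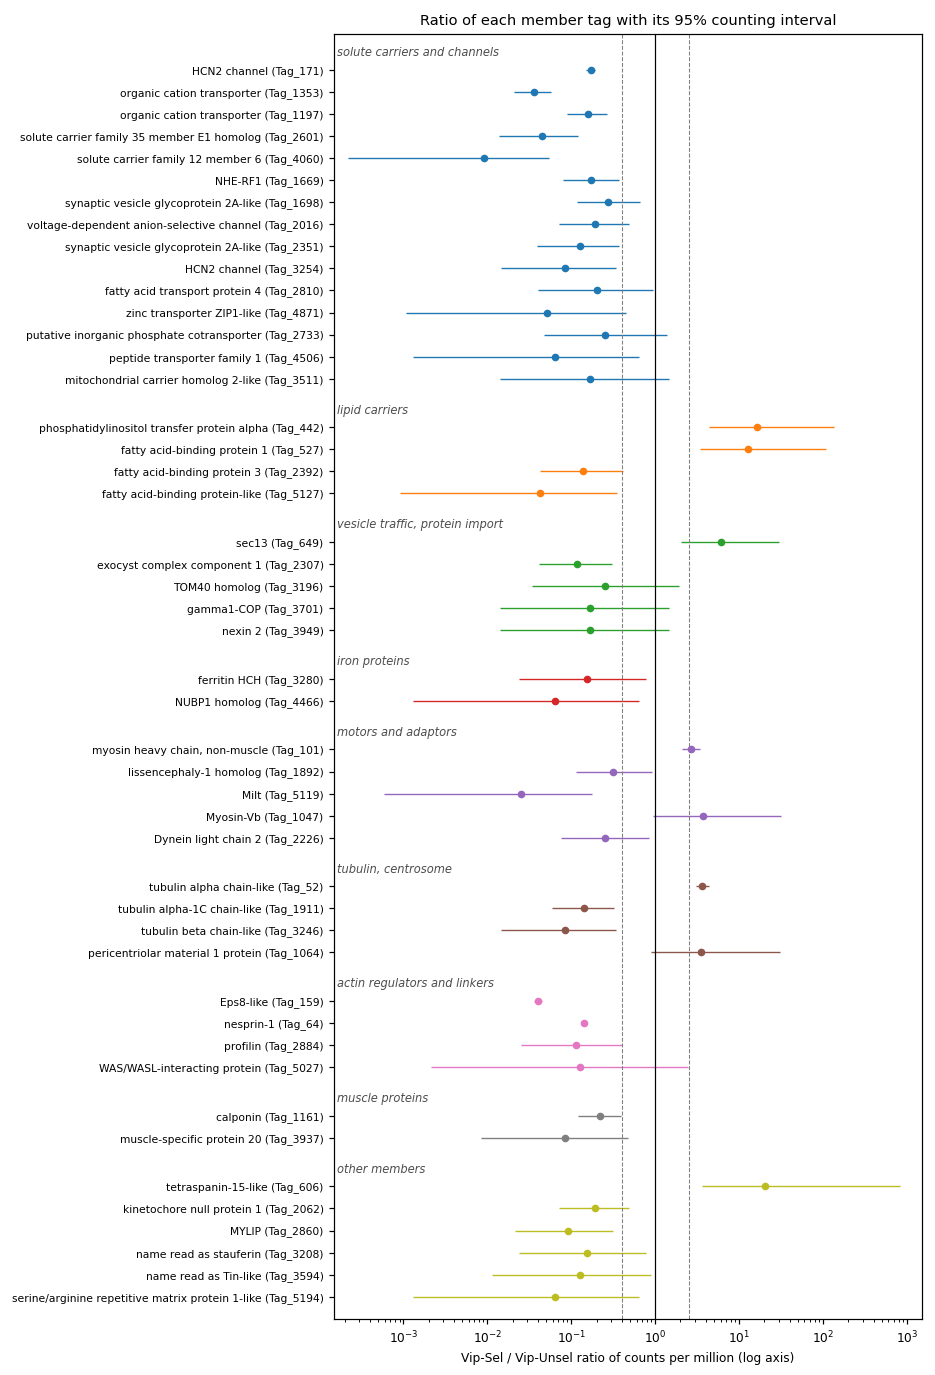
FC of each member tag (Vip–Sel over Vip–Unsel, log axis) with its exact 95% interval, by functional group; dashed lines mark FC 0.4 and 2.5 and the solid line marks 1. All 15 solute carrier and channel tags lie left of 1, while lipid carriers, motors and tubulins have tags on both sides. Of all called tags counted in both libraries, 78.9% were UE.

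Lipid carriers were divided. Phosphatidylinositol transfer protein alpha, which moves phospholipids between membranes, and fatty acid-binding protein 1, a cytosolic carrier of fatty acids, were OE, and the tags of 2 other fatty acid-binding proteins were UE. Tag_442 of the phosphatidylinositol transfer protein had 128 counts in Vip–Sel (121 cpm) against 2 in Vip–Unsel (7.46 cpm), an FC of 16.3 (4.41 to 136). Tag_527 of fatty acid-binding protein 1 had 101 counts in Vip–Sel (95.6 cpm) against 2 in Vip–Unsel (7.46 cpm), an FC of 12.8 (3.46 to 107). The UE tags were of fatty acid-binding protein 3, with 6 Vip–Sel counts against 11 for Vip–Unsel (FC 0.139, 0.0421 to 0.409), and of a fatty acid-binding protein-like entry, with 1 Vip–Sel count against 6 for Vip–Unsel (FC 0.0423, 0.000920 to 0.349). For fatty acid-binding protein 3 the counts were taken from normalized values. Of the 3 deposited tags with these counts, the most similar to its poorly read sequence was used. The intervals of the OE and the UE fatty acid-binding protein tags did not overlap. Since tags were listed only past opposite thresholds, this separation is no test of a difference between them. The 4 tags summed to 236 counts in Vip–Sel compared with 21 in Vip–Unsel (FC 2.85, 1.82 to 4.70), and without Tag_442 to 108 Vip–Sel and 19 Vip–Unsel counts (FC 1.44, 0.881 to 2.49).

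Vesicle traffic and protein import had 1 OE and 4 UE tags. The OE tag was of sec13, a subunit of the COPII coat that buds vesicles from the endoplasmic reticulum. Tag_649 had 72 counts in Vip–Sel (68.2 cpm) against 3 in Vip–Unsel (11.2 cpm), an FC of 6.09 (2.00 to 30.2). Exocyst complex component 1, part of the tether that docks secretory vesicles at the plasma membrane, had 7 Vip–Sel counts against 15 for Vip–Unsel (FC 0.119, 0.0409 to 0.309). Among the 4 UE tags read in this group, it was the only one whose interval lay below 1. The study also lists a tag of protein transport protein Sec61 subunit beta among its most underexpressed. The class of that tag could not be read, so it is not counted here. The TOM40 homolog, the import channel of the outer mitochondrial membrane, had 3 counts in each library (FC 0.254, 0.0340 to 1.90). A COPI coat subunit, gamma1-COP, and nexin 2, of the sorting nexins that return receptors from endosomes, each had 2 counts in Vip–Sel compared with 3 in Vip–Unsel (FC 0.169, 0.0141 to 1.48). The sum of the 5 tags was 86 Vip–Sel counts against 27 for Vip–Unsel (FC 0.809, 0.520 to 1.30), and without sec13 it was 14 Vip–Sel and 24 Vip–Unsel counts (FC 0.148, 0.0708 to 0.298).

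The iron class held a homolog of NUBP1, a scaffold that assembles iron-sulfur clusters in the cytosol, and ferritin HCH, the heavy chain homolog of the storage protein. NUBP1 had 1 count in Vip–Sel compared with 4 in Vip–Unsel (FC 0.0635, 0.00129 to 0.642). Ferritin HCH (Tag_3280) had 3 Vip–Sel counts against 5 for Vip–Unsel (FC 0.152, 0.0237 to 0.783). The ferritin value depends on how reads of near-identical sequence are counted, as a tag that differs from it by a single base was seen in Vip–Sel alone. The member and this form are printed with the substituted base in capitals, named C7T with positions counted from 1 at the C of CATG.

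ferritin HCH, member tag (3 counts in Vip–Sel, 5 in Vip–Unsel): catgtaCtccactttagattgtatcc
ferritin HCH, C7T form (18 counts in Vip–Sel, 0 in Vip–Unsel): catgtaTtccactttagattgtatcc

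Summed over all tags a single substitution away, ferritin HCH had 23 counts in Vip–Sel compared with 8 in Vip–Unsel, an FC of 0.730 (0.315 to 1.89), and was no longer UE. Summed over the tags that share its first 24 bases it had 5 and 8 counts in Vip–Sel and Vip–Unsel (FC 0.159). The origin of the C7T form was not tested.

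Motor proteins and their adaptors had 2 OE tags, of non-muscle myosin heavy chain and Myosin-Vb, and 3 UE tags, of Milt, dynein light chain 2 and the lissencephaly-1 homolog. Non-muscle myosin heavy chain, the motor of the contractile actin bundles of epithelial cells, had 755 counts in Vip–Sel (714.9 cpm) against 72 in Vip–Unsel (268.5 cpm), an FC of 2.66 (2.09 to 3.44). Myosin-Vb, which carries membrane cargo along actin, had 29 counts in Vip–Sel (27.5 cpm) against 2 in Vip–Unsel (7.46 cpm), an FC of 3.68 whose interval, 0.931 to 31.8, held 1. Both OE calls ended with the tags' forms summed: over tags a single substitution apart the FC was 2.16 (1.75 to 2.68) for non-muscle myosin heavy chain and 1.73 (0.672 to 5.66) for Myosin-Vb.

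Milt, in Drosophila the adaptor that couples kinesin to mitochondria, had 1 Vip–Sel count against 10 for Vip–Unsel (FC 0.0254, 0.000585 to 0.178). Dynein light chain 2, a cytoplasmic dynein subunit, had 7 counts in each library (FC 0.254, 0.0760 to 0.848). The lissencephaly-1 homolog, a regulator of dynein, had 10 counts in Vip–Sel compared with 8 in Vip–Unsel (FC 0.317, 0.113 to 0.925). These values lay below 1 with their whole intervals, yet only Milt lay wholly below 0.4. The 5 tags summed to 802 Vip–Sel counts against 99 for Vip–Unsel (FC 2.06, 1.67 to 2.56), and without the non-muscle myosin tag to 47 Vip–Sel and 27 Vip–Unsel counts (FC 0.442, 0.270 to 0.738), so the sum of the group took its direction from 1 tag.

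Tubulins, the subunits of microtubules, also went both ways. Tubulin alpha chain-like (Tag_52) was the most abundant member of all in Vip–Sel, with 1996 counts (1890.0 cpm, rank 52), against 140 in Vip–Unsel (522 cpm, rank 175), an FC of 3.62 (3.05 to 4.33). The AT-rich Tag_1911 of tubulin alpha-1C chain-like had 10 counts in Vip–Sel (9.47 cpm) against 18 in Vip–Unsel (67.1 cpm), an FC of 0.141 (0.0582 to 0.322). Their intervals lay on opposite sides of 1, which the thresholds that chose the members favour. Tubulin beta chain-like had 3 counts in Vip–Sel compared with 9 in Vip–Unsel (FC 0.0846, 0.0147 to 0.339). Pericentriolar material 1 protein, a scaffold of the satellites around centrosomes, had 28 Vip–Sel counts against 2 for Vip–Unsel (FC 3.56, 0.896 to 30.8), with 1 inside the interval. Without Tag_52 the other 3 tags summed to 41 counts in Vip–Sel compared with 29 in Vip–Unsel (FC 0.359, 0.218 to 0.599), against 3.06 (2.62 to 3.60) with it.

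**Figure D3:**
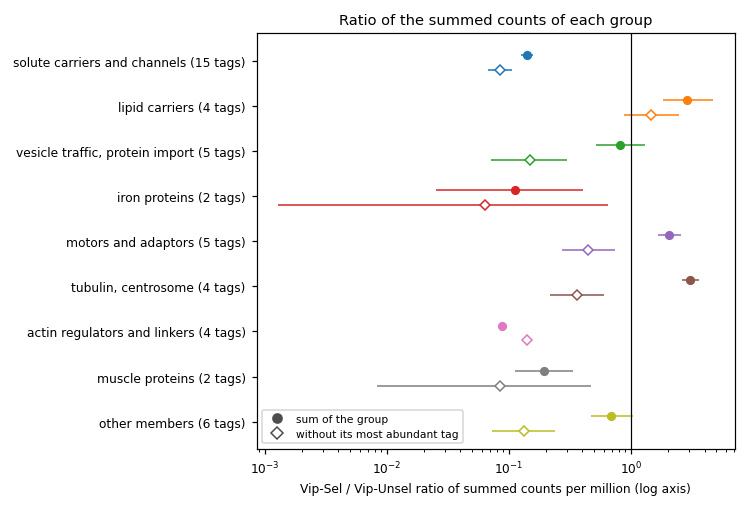
FC of the summed counts of each functional group (filled circles, Vip–Sel over Vip–Unsel, log axis) and of the same group without its most abundant tag (open diamonds), with exact 95% intervals. The sums of motors and of tubulins stand at 2.06 and 3.06 and lie at 0.442 and 0.359 without that tag, while the solute carriers stay below 1 either way.

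The actin regulators and linkers held the most abundant UE members. Eps8-like, in mammals a protein that caps and bundles the actin filaments of microvilli, had 442 counts in Vip–Sel (418.5 cpm, rank 164) against 2801 in Vip–Unsel (10445 cpm, rank 14), an FC of 0.0401 (0.0362 to 0.0443). The Eps8-like tag and that of profilin lay on the strand opposite to their contigs, and the strand of their reads was not tested. Nesprin-1, a giant protein that links the nuclear envelope to actin, had 1386 counts in Vip–Sel (1312 cpm, rank 65) against 2481 in Vip–Unsel (9252 cpm, rank 15), an FC of 0.142 (0.133 to 0.152). These tags together made up most of the group's 1833 Vip–Sel counts against 5293 for Vip–Unsel (FC 0.0879, 0.0833 to 0.0928). Their forms moved with them: summed over a single substitution, Eps8-like had 494 and 3294 counts in Vip–Sel and Vip–Unsel (FC 0.0381) and nesprin-1 had 1732 and 3370 (FC 0.131). Profilin, which feeds actin monomers to growing filaments, had 4 counts in Vip–Sel compared with 9 in Vip–Unsel (FC 0.113, 0.0254 to 0.404). The WAS/WASL-interacting protein tag, of a family that regulates branched actin, had 1 Vip–Sel count against 2 for Vip–Unsel (FC 0.127, 0.00215 to 2.44), the smallest count behind any member.

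Muscle proteins were represented by calponin, a regulator of actomyosin in muscle, and muscle-specific protein 20, a relative of calponin first described in Drosophila. Calponin had 24 counts in Vip–Sel (22.7 cpm) against 28 in Vip–Unsel (104 cpm), an FC of 0.218 (0.121 to 0.389). Muscle-specific protein 20 had 2 counts in Vip–Sel compared with 6 in Vip–Unsel (FC 0.0846, 0.00835 to 0.473). Beside them, the study's lists name 4 more muscle tags in other classes, and all 6 were UE, as were 78.9% of all called tags counted in both libraries. Their summed counts were 380 in Vip–Sel (0.0360% of the library) against 413 in Vip–Unsel (0.154%), an FC of 0.234 (0.203 to 0.269). Muscle myosin heavy chain, the defining protein of thick filaments, gave most of that sum, with 337 Vip–Sel counts against 358 for Vip–Unsel (FC 0.239, 0.205 to 0.278), and a further tag of it starts at the same CATG on the other strand. Under TMM scaling every FC is 2.12 times higher, which puts the sum of the 6 tags and the abundant muscle myosin tag above 0.4. Tropomyosin-1 had 10 counts in Vip–Sel compared with 7 in Vip–Unsel (FC 0.363, 0.125 to 1.12), and no listed tag was named for troponin or titin. Both tags of arginine kinase, an energy-buffering enzyme abundant in muscle, were UE as well, with 0.212% of the Vip–Sel library against 1.87% of the Vip–Unsel library. Whether the share of visceral muscle in the dissected guts differed between the libraries was not tested.

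The 6 other members have no common role. Tetraspanin-15-like, of a family of proteins that organise other proteins within membranes, had the highest FC of all members, with 81 counts in Vip–Sel (76.7 cpm) against 1 in Vip–Unsel (3.73 cpm), an FC of 20.6 (3.59 to 822). MYLIP, an E3 ubiquitin ligase named for its binding to myosin regulatory light chain, had 4 Vip–Sel counts against 11 for Vip–Unsel (FC 0.0923, 0.0214 to 0.312). Kinetochore null protein 1, which anchors microtubules at chromosomes, had 9 counts in Vip–Sel compared with 12 in Vip–Unsel (FC 0.190, 0.0709 to 0.492). The serine/arginine repetitive matrix protein 1-like tag, of a splicing factor, had 1 and 4 counts in Vip–Sel and Vip–Unsel (FC 0.0635). For 2 further UE tags the protein name could not be read with certainty, and they had 3 and 5 counts (Tag_3208) and 2 and 4 counts (Tag_3594) in Vip–Sel and Vip–Unsel. For Tag_3594 the counts too were taken from normalized values. Of the 43 deposited tags with these counts, the most similar to its poorly read sequence was used, so the join is uncertain.

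Some tags fall on the same contig, and since the lists hold only called tags, their directions are a description. Both HCN2 tags matched 1 contig at different CATG sites, and both were UE, Tag_171 with the counts above and Tag_3254 with 3 Vip–Sel counts against 9 for Vip–Unsel (FC 0.0846, 0.0147 to 0.339). The SV2A-like tags, and the Eps8-like tag with another tag that the study lists in the class of protein kinases, start at 1 shared CATG and read away from it on opposite strands, since CATG is its own reverse complement.

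HCN2 (Tag_171): CATGctgtcggtgctgggctacgacc
HCN2 (Tag_3254): CATGgggacacggcgccgcggctctg
SV2A-like, opposite strand of the contig (Tag_1698): CATGgtccgcgtacgaagtcgcgggc
SV2A-like, strand of the contig (Tag_2351): CATGtcgcttatgccagcgacaatgg
Eps8-like, opposite strand of the contig (Tag_159): CATGcccggccaccagctgttcgcgc
Eps8-like, strand of the contig (Tag_2143): CATGcgcagtgcgcgccgcgtgcccg

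At the Eps8-like site the abundant tag was on the strand opposite to the contig, and its partner Tag_2143 had 8 counts in Vip–Sel compared with 11 in Vip–Unsel (FC 0.185, 0.0645 to 0.504). The interval of Tag_159, 0.0362 to 0.0443, lay below that of its partner, and that both are UE was fixed by the lists they come from. The study's lists hold 13 pairs of tags on a common contig, 6 of them at a shared site, all 6 of UE tags. Of the 47 members 9 lay on the opposite strand of their contig (19.1%), 2 OE and 7 UE, against 17.9% of the 414 list entries whose position could be read. The OE tags of Myosin-Vb and pericentriolar material 1 protein and the UE tags of ZIP1-like, the phosphate cotransporter, SV2A-like Tag_1698, profilin, tubulin beta and Eps8-like were among these. The strand that such reads came from was not tested.

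Near-identical forms were common: 43 of the 47 members had at least 1 tag a single substitution away or with the same first 24 bases. Over a single substitution 43 members met the thresholds as before and 4 did not, namely non-muscle myosin heavy chain, Myosin-Vb, nexin 2 (FC 0.339, 0.0573 to 2.31) and ferritin HCH. Over the first 24 bases 45 did, and both myosins did not (FC 2.17 and 2.22). Only 2 members had a form at least as abundant as themselves, ferritin HCH and SV2A-like Tag_1698. Forms of SV2A-like Tag_1698 differed from it at the first base after CATG, shown in capitals. They are named G5A and G5T with the same count of positions.

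SV2A-like, member tag (13 counts in Vip–Sel, 12 in Vip–Unsel): catgGtccgcgtacgaagtcgcgggc
SV2A-like, G5A form (23 counts in Vip–Sel, 27 in Vip–Unsel): catgAtccgcgtacgaagtcgcgggc
SV2A-like, G5T form (25 counts in Vip–Sel, 24 in Vip–Unsel): catgTtccgcgtacgaagtcgcgggc

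The forms had nearly the same split between the libraries as the member tag. The sum over a single substitution, 61 Vip–Sel counts against 64 for Vip–Unsel, had an FC of 0.242 (0.168 to 0.349). Tag_1170, listed for another protein (YLP motif containing 1) on another contig, has the counts of the G5T form. The sum may therefore mix transcripts of different genes, which was not tested. No member passed to the other side of 1 with its forms summed. Peptide transporter family 1 and fatty acid transport protein 4 gained counts mainly in Vip–Unsel, to 2 and 18 (FC 0.0282, 0.00317 to 0.118) and to 5 and 19 (FC 0.0668, 0.0195 to 0.185) in Vip–Sel and Vip–Unsel.

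**Figure D4:**
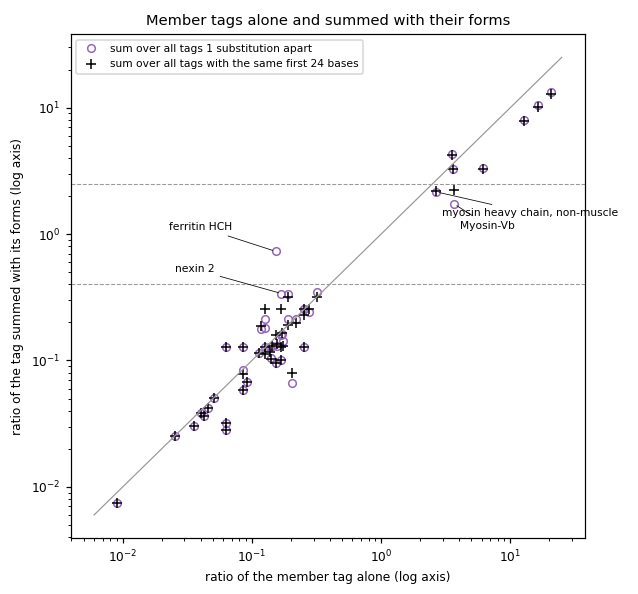
FC of each member tag alone (horizontal, log axis) and of the tag summed with its near-identical forms (vertical, log axis), as circles for a single substitution and crosses for the same first 24 bases. The grey diagonal marks equality and dashed lines mark 0.4 and 2.5; ferritin HCH moves up to 0.730 and both myosins move down to 2.16 and 1.73.

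The direction of the members has to be read beside the scale of the libraries. Of the 5237 tags counted in both, 3771 (72.0%) had an FC below 1. With library sizes scaled by TMM, every FC was 2.12 times higher (a log2 shift of 1.09), all 8 OE members stayed OE and 23 of the 39 UE members stayed UE. By group, 10 of 15 solute carriers and channels, 1 of 4 vesicle traffic tags, 1 of 3 motors and adaptors and 3 of 4 actin regulators stayed UE. Among those that did not were calponin, dynein light chain 2, the lissencephaly-1 homolog, ferritin HCH, the anion-selective channel and SV2A-like Tag_1698. Eps8-like, nesprin-1, HCN2 Tag_171, both organic cation transporters and solute carrier family 12 member 6 were among the 23.

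**Figure D5:**
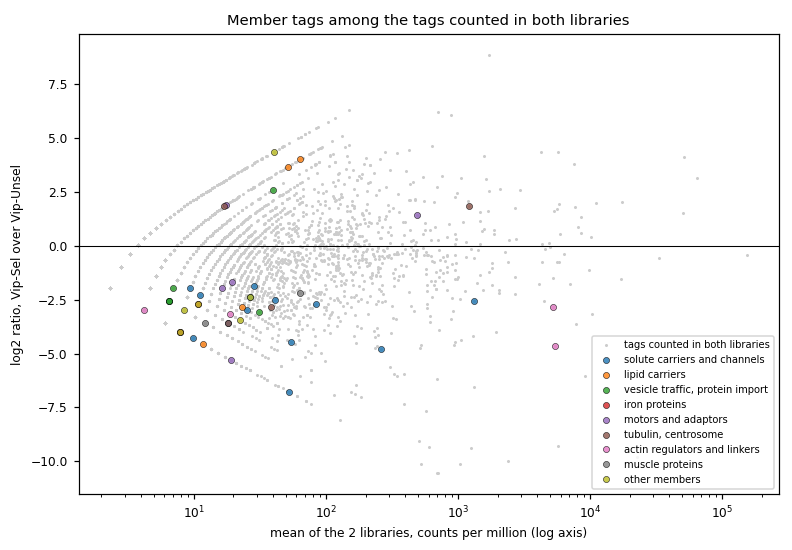
Log2 FC (Vip–Sel over Vip–Unsel) against the mean level in both libraries in cpm (log axis) for the 5237 tags counted in both (grey) and the 47 members (coloured by group; points with equal counts overlap). Members lie above and below 0 at low and at high levels, and none lies near 0 because the lists they come from hold tags past the thresholds.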

How the data were processed

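The authors deposited, for each library, the raw counts of identical 26-base tags, made by sorting reads by index and removing incomplete, low-quality and other-length reads; per the labels no alignment or genome build enters them, and a count is not normalized. Totals were 1056080 for Vip–Sel and 268172 for Vip–Unsel.

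Members and lists were chosen with earlier results of these data known. Names, classes and contigs come from the study's tables, read with errors, and each entry was joined to the deposited tag with the same counts and the most similar sequence; for 2 members the counts were taken from normalized values. For a few tags the name is uncertain. Fold changes, exact binomial intervals (95%), Poisson intervals and Audic–Claverie P were computed in Python 3.11.15 with numpy 2.4.6 and scipy 1.17.1, and TMM factors with R 4.3.3 and edgeR 4.0.16. No count model was fitted, since there is 1 library per strain. All members read were accounted for: the counts named are those of every solute carrier, iron, motor, tubulin and muscle member, and the 4 most abundant and 2 most changed of each other group. Alternatives covered scaling, fold thresholds, adjustment, Fisher's exact test, GC content and near-identical tags. The authors' calls chose the members; no value of the proton pump tags or of the authors' fold changes is given.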

Additional observations from a re-analysis of the deposited data

How the results depend on the processing

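No paired analysis was possible because each strain has 1 library. Over all tested tags, TMM scaling gave 2588 OE tags in place of 1037, counting only tags seen in both libraries gave 420 OE and 1570 UE in place of 1037 and 4169, and a minimum of 10 counts gave 992 UE. Among the members, fold thresholds of 4 and 0.25 left 4 of 8 OE tags and TMM scaling left 23 of 39 UE tags; the other settings left 6 to 8 OE and 33 to 39 UE members. Group sums under TMM scaling were 0.298 for solute carriers, 6.06 for lipid carriers, 4.37 for motors, 6.49 for tubulins, 0.187 for actin regulators and 0.412 for muscle proteins, and passed to the other side of 1 for vesicle traffic (1.72) and the other members (1.46). Totals without the 10 most abundant tags gave 0.176 for solute carriers, 2.57 for motors, 3.82 for tubulins, 0.110 for actin regulators and 1.01 for vesicle traffic, which is past 1. These follow from the scaling itself, which multiplies every FC by 2.12 and by 1.25. Without the most abundant tag the sums were 0.0846 (solute carriers), 1.44 (lipid carriers), 0.148 (vesicle traffic), 0.442 (motors), 0.359 (tubulins), 0.142 (actin regulators), 0.0846 (muscle) and 0.134 (other members), and those of motors and tubulins passed below 1. Summing a single substitution gave 0.429 for iron proteins and 2.58 for tubulins, and summing the first 24 bases gave 2.55 for tubulins. An alternative chosen after seeing the data, motors without the tags that lost the threshold with forms summed, gave 0.183. Single members kept their direction under TMM scaling and both sums of forms. With a single count in Vip–Sel, as in 8 members, depth limits the FC to an upper bound of its interval.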

Other observations

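Outside the classes described above, the lists name a few further tags of the same machinery. Cytoplasmic dynein 1 intermediate chain, the subunit that joins dynein to its cargo adaptors, had 95 counts in Vip–Sel compared with 1 in Vip–Unsel (FC 24.1, 4.23 to 963), while dynein light chain 2 and the dynein regulator lissencephaly-1 were UE (FC 0.254 and 0.317). The intermediate chain tag lay on the opposite strand of its contig, and the strand that its reads came from was not tested. Its sequence was read with several errors in the list, and the join rests on its counts. Rab-3A, a small GTPase of vesicle docking, had 1 Vip–Sel count against 3 for Vip–Unsel (FC 0.0846, 0.00161 to 1.05), and annexin IX-B, a calcium-dependent membrane binding protein, had 4 in Vip–Sel against 6 in Vip–Unsel (FC 0.169, 0.0351 to 0.714). These tags were chosen after their values were seen.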
